A study of Papio hamadryas with 12 samples.

Results

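The 7 genes of the mitochondrial genome that encode subunits of respiratory complex I, the ND genes, were examined in the buffy coat of baboons with high or low LDL-C, the cholesterol carried by low-density lipoproteins. The table of expected counts lists 27533 genes, of which 38 lie on chromosome MT and 15 of these span more than 150 bp. Sorted by start, these 15 followed the gene order of vertebrate mitochondrial DNA, and the genes at positions 3, 4, 10, 11, 12, 13 and 14 were taken as ND1, ND2, ND3, ND4L, ND4, ND5 and ND6. The files give Ensembl IDs without symbols, so the names rest on this order. All 7 passed the filter on low values, a mean CPM (a count scaled to the size of its library) of at least 1.

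The 12 RNA-seq libraries came from 6 adult baboons (Papio hamadryas). The 3 high LDL-C baboons (numbered 4, 5 and 6) were sampled on a high-cholesterol, high-fat (HCHF) diet and on chow, and so were the 3 low LDL-C baboons (numbered 1, 2 and 3), so that each of the 4 combinations holds 3 libraries and each baboon is its own control. The study chose half-sib pairs that differed in LDL-C, but the labels do not say which animals are half-sibs. Chow was fed first in all 6 baboons, so that diet and time of sampling cannot be told apart. The buffy coat is the layer of white blood cells and platelets between plasma and red cells, and in such a bulk sample a lower level can mean fewer cells of a type or less RNA per cell, which cannot be told apart.

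Complex I, or NADH dehydrogenase, takes electrons from NADH, passes them to ubiquinone and pumps protons across the inner mitochondrial membrane. The nucleus encodes most of its subunits, and the ND genes encode the hydrophobic core of its membrane arm. ND2, ND4 and ND5 are related to bacterial antiporters and form proton channels, while ND1, ND3, ND4L and ND6 lie towards the quinone site and link the channels to the rest of the complex. In mammals mitochondrial genes are transcribed as long precursors from both strands of the circular genome. Of the protein-coding genes only ND6 is read from the light-strand promoter. ND4L and ND4 stay joined in a single mRNA, as do ATP8 and ATP6. In human cells the ND6 mRNA carries little or no poly(A) tail, unlike the other mitochondrial mRNAs.

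In the PapAnu2 annotation the ND genes lie in 2 runs of chromosome MT (positions as given in the files, with the span as stop minus start). ND1 (ENSPANG00000000006) runs from 2728 to 3683 and ND2 from 3890 to 4938, downstream of both ribosomal RNA genes. ND3 lies at 9479 to 9825, ND4L at 9890 to 10187 and ND4 at 10180 to 11558, so that ND4L and ND4 overlap by 7 bp. ND5 extends from 11763 to 13569, where ND6 (ENSPANG00000000033) begins and runs to 14094. Spans ranged from 297 bp for ND4L to 1806 bp for ND5. Each ND gene has 1 annotated transcript, and all 84 expected counts of the ND genes were whole numbers. The methods describe poly(A) selection and random priming without a strand mark. Reads from ND6 and from heavy-strand RNA opposite to it therefore cannot be told apart. How reads were divided between the mitochondrial genes and any nuclear copies of them was not tested.

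Total counts ranged from 3434663 to 8518159 per library, and 2 genes, on chromosome 20 (39182 to 41379) and chromosome 14 (60046720 to 60049466), took 16.3% to 89.3% of them. The chow library of baboon 1 (16.8%) and the HCHF library of baboon 6 (16.3%) stood apart from the other 10, in which these 2 genes took at least 43.5%. On the HCHF diet the share of these 2 genes was lower than on chow in 5 of 6 baboons and higher in baboon 1. The chow library of baboon 2 had the smallest remainder, 915109 counts, and 26336 counts on the ND genes, while the chow library of baboon 1 had the most, 326362. The lowest single ND count was 1026, for ND6, so that counting error is small beside the spread between baboons. The labels give 6 index sequences, each used for 1 high and 1 low LDL-C library, and no date or lane. Markers of blood cell types and the nuclear complex I genes were not counted, because IDs could not be matched to symbols.

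Of the total count, the ND genes together took 3.71%, 2.79% and 7.13% in the high LDL-C baboons on the HCHF diet (baboons 4, 5 and 6), against 2.99%, 2.39% and 4.12% on chow. The low LDL-C baboons 1, 2 and 3 had 4.55%, 2.97% and 2.90% on the HCHF diet, against 7.01%, 0.309% and 1.68% on chow. These shares follow the 2 most counted genes as well as the ND genes. Outside those 2 genes the ND genes took 6.57%, 5.35% and 8.52% in high LDL-C baboons on the HCHF diet, against 6.20%, 5.38% and 8.62% on chow. For low LDL-C baboons the same shares were 8.96%, 8.14% and 7.09% on the HCHF diet, against 8.43%, 2.88% and 4.65% on chow. The ND share of this remainder was thus higher on the HCHF diet in all 3 low LDL-C baboons, by least in baboon 1, and differed between the diets by less in each high LDL-C baboon than in baboon 1.

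Levels below are CPM adjusted by the TMM factors of edgeR, and for comparisons between genes they are divided by the span in kb. The TMM factors ran from 0.134 for the chow library of baboon 2 to 2.24 for the HCHF library of baboon 6. In baboon 1 they were 0.882 on the HCHF diet and 2.16 on chow. Over the 12 libraries ND4 was highest, with a mean of 9332 ± 2977 CPM per kb (SD, n = 12). Then came ND2 at 5762 ± 2624, ND3 at 5579 ± 2763, ND4L at 4954 ± 1983 and ND1 at 4680.4 ± 1637 CPM per kb. ND6 stood at 1942 ± 603 and ND5 at 1332 ± 404 CPM per kb. ND4 exceeded ND2, ND1 exceeded ND6 and ND6 exceeded ND5 in all 12 libraries. The neighbours from ND2 to ND1 in this order did not differ beyond their spread: ND2 was above ND3 in 6 of 12 libraries, ND3 above ND4L in 6 and ND4L above ND1 in 9. ND5 is the longest of the ND genes and had the lowest level per kb. The levels of ND4 and ND5, both proton-channel subunits present once in each complex, differed 4.34-fold to 12.7-fold per kb within a library (median 6.90). ND6 was 1.12-fold to 2.41-fold above ND5 (median 1.36). Set against the other 6 mitochondrial mRNAs, which encode subunits of cytochrome c oxidase (COX1, COX2, COX3), of ATP synthase (ATP6, ATP8) and cytochrome b (CYTB), the mean of the ND genes per kb was lower than the lowest of them in every library, by 1.05-fold to 2.11-fold. This does not hold for each ND gene. ND4 alone lay above CYTB (mean 7830 ± 3599 CPM per kb) in every library except the HCHF library of baboon 3.

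**Figure D1:**
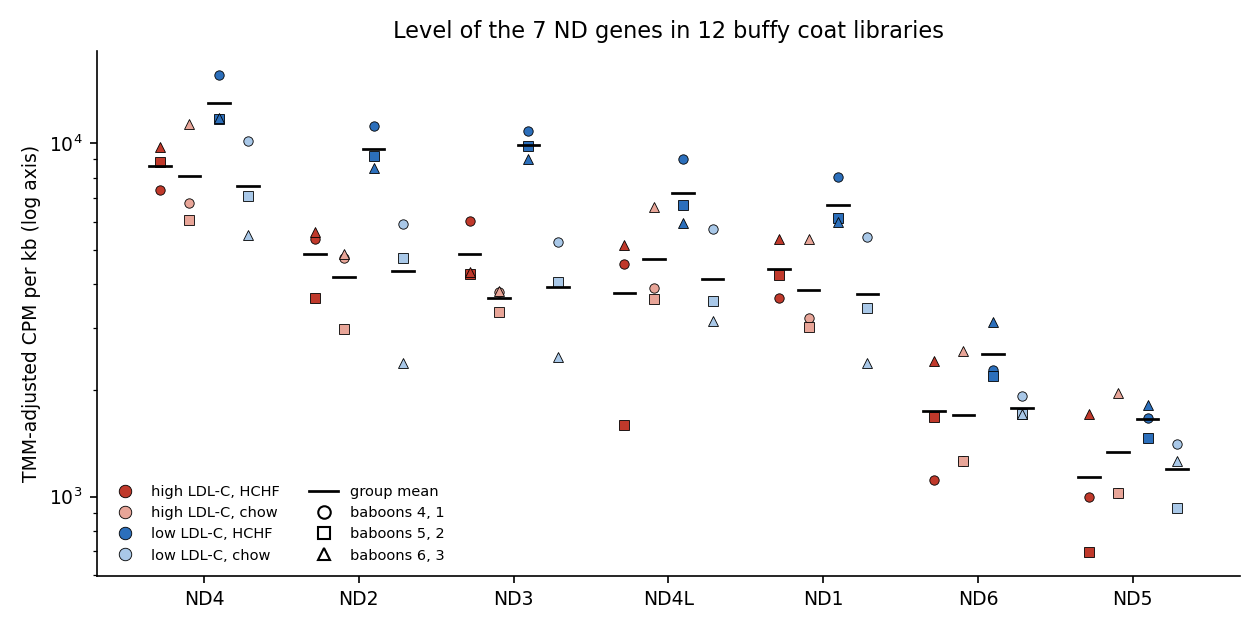
TMM-adjusted CPM per kb (log axis) of the 7 ND genes, ordered by mean, in high LDL-C baboons (red) and low LDL-C baboons (blue), dark points for the HCHF diet and light points for chow, with a bar at each group mean of 3 libraries. ND4 is highest, ND6 and ND5 are lowest, and the HCHF libraries of low LDL-C baboons lie at or near the top for most genes.

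The diet comparison asked which genes differ between the HCHF diet and chow within the same baboons. For all 7 ND genes the fitted difference over the 6 baboons was above 0, with a median log2 fold change of 0.48 on the log2 CPM scale, from 0.11 for ND5 to 0.89 for ND3, although 6 of 7 were above 0 without baboon 2, 5 of 7 after quantile normalization with limma (median 0.12) and 2 of 7 when scaled by the COX, ATP and CYTB mRNAs (median -0.24). None was called, which required a two-sided p below 0.05 in the quasi-likelihood test of edgeR, fitted with baboon as a term, and below 0.20 after Benjamini-Hochberg adjustment, and the background was 0% of the 11579 genes tested. At an unadjusted p under 0.05 alone 1 of 7 was higher, ND3, beside 2.25% of all genes higher. Fitted values above 0 made up 48.2% of all genes, whose median was -0.01, and the 6 other mitochondrial mRNAs had a median of 0.73. With DESeq2 1 ND gene was called, ND3 (adjusted p = 0.0445), among 45 genes in all.

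Among the proton-channel subunits, ND2 stood at 5605, 3820.0 and 5889 CPM in high LDL-C baboons 4, 5 and 6 on the HCHF diet, against 4963, 3123 and 5108 CPM on chow. In low LDL-C baboons 1, 2 and 3 it was at 11754, 9628 and 8918 CPM on the HCHF diet, against 6205, 4955 and 2499.7 CPM on chow. ND2 was higher on the HCHF diet in 6 of 6 baboons. ND4 had 10146, 12172 and 13455 CPM in the high LDL-C baboons on the HCHF diet, against 9317, 8371 and 15619.9 CPM on chow. The low LDL-C baboons had 21563, 16128 and 16216 CPM of ND4 on the HCHF diet, against 14000.0, 9766 and 7561 CPM on chow. It was higher on the HCHF diet in 5 of 6 baboons, the exception being baboon 6. ND5 had 1803, 1260.5 and 3093 CPM in the high LDL-C baboons on the HCHF diet, against 1848, 1853 and 3543 CPM on chow. In the low LDL-C baboons its level was 3024, 2647 and 3288 CPM on the HCHF diet, against 2549.6, 1672 and 2282 CPM on chow. ND5 was lower on the HCHF diet in all 3 high LDL-C baboons, by little in baboon 4, and higher in all 3 low LDL-C baboons. The share of all genes with such a split was not counted. Tested directly, the difference between the ND5 diet responses, high minus low LDL-C, was -0.74 (SE 0.65, unadjusted p = 0.277 by edgeR), so a split by phenotype was not established. Over the 6 baboons the log2 fold change was 0.72 for ND2 (SE 0.37, adjusted p = 0.939 by edgeR), 0.48 for ND4 (SE 0.37, adjusted p = 0.958) and 0.11 for ND5 (SE 0.31, adjusted p = 0.986).

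Of the subunits near the quinone site, ND3, a short protein with a loop that moves as the enzyme changes between active and resting forms, had the largest fitted difference. Its level was 2085, 1473 and 1496 CPM in the high LDL-C baboons 4, 5 and 6 on the HCHF diet, against 1312, 1150.5 and 1322 CPM on chow. In low LDL-C baboons 1, 2 and 3 it was 3741, 3390.1 and 3122 CPM on the HCHF diet, against 1816, 1397 and 860.0 CPM on chow. ND3 was higher on the HCHF diet in 6 of 6 baboons. Its log2 fold change over all baboons was 0.89 (SE 0.33, 95% interval 0.16 to 1.63, unadjusted p = 0.0211 and adjusted p = 0.931 by edgeR). ND1 had 3486, 4042 and 5113 CPM in the high LDL-C baboons on the HCHF diet, against 3052, 2881 and 5109 CPM on chow. The low LDL-C baboons had 7658, 5851 and 5708 CPM of ND1 on the HCHF diet, against 5189.6, 3270.4 and 2278 CPM on chow. ND1 was higher in 6 of 6 baboons, by almost nothing in baboon 6, with a log2 fold change of 0.57 (SE 0.33, adjusted p = 0.943 by edgeR). In baboon 1 the direction rests on the TMM scaling. Of the counts outside the 2 most counted genes, ND1 had 33229 of 2499655 there on the HCHF diet. On chow it had 52162 of 3872812, a slightly larger share. Scaled by the COX, ATP and CYTB mRNAs, the ND1 log2 fold change over all baboons was -0.16.

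ND4L had 1349, 475 and 1526 CPM in the high LDL-C baboons on the HCHF diet, against 1160.2, 1074 and 1957 CPM on chow. It was at 2675, 1991 and 1763 CPM on the HCHF diet in the low LDL-C baboons, against 1696, 1060.1 and 931 CPM on chow. The lowest of the 12 values belongs to baboon 5 on the HCHF diet, and the sign of the difference varied among the high LDL-C baboons. ND6 had 587, 885 and 1273 CPM in the high LDL-C baboons on the HCHF diet, against 664, 662 and 1359.7 CPM on chow. In the low LDL-C baboons it had 1196, 1156 and 1639.6 CPM on the HCHF diet, against 1014, 897 and 899 CPM on chow. For both genes 4 of 6 baboons had the higher value on the HCHF diet. The log2 fold changes were 0.21 for ND4L (SE 0.36, adjusted p = 0.974 by edgeR) and 0.27 for ND6 (SE 0.28, adjusted p = 0.958). As a background for these counts, the HCHF value exceeded the chow value in 6 of 6 baboons for 1.99% of all genes tested and in none for 2.36%. It did so in 5 baboons for 9.64% and in 4 for 23.4%. In the high LDL-C baboons all HCHF values lay above all chow values for 1 of 7 ND genes, ND3, beside 3.89% of all genes. In the low LDL-C baboons they did so for 7 of 7, beside 3.64% of all genes. Each of the 6 other mitochondrial mRNAs did so in the low LDL-C baboons as well, so this was not particular to the ND genes. Among them COX2, ATP6, COX3 and CYTB were also higher on the HCHF diet in 6 of 6 baboons, and COX1 and ATP8 in 5. These counts rest on the TMM factors. Outside the 2 most counted genes, the ND genes together took 8.43% in low LDL-C baboon 1 on chow. On the HCHF diet they took 8.14% in baboon 2 and 7.09% in baboon 3, so on that scale the diets overlap.

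**Figure D2:**
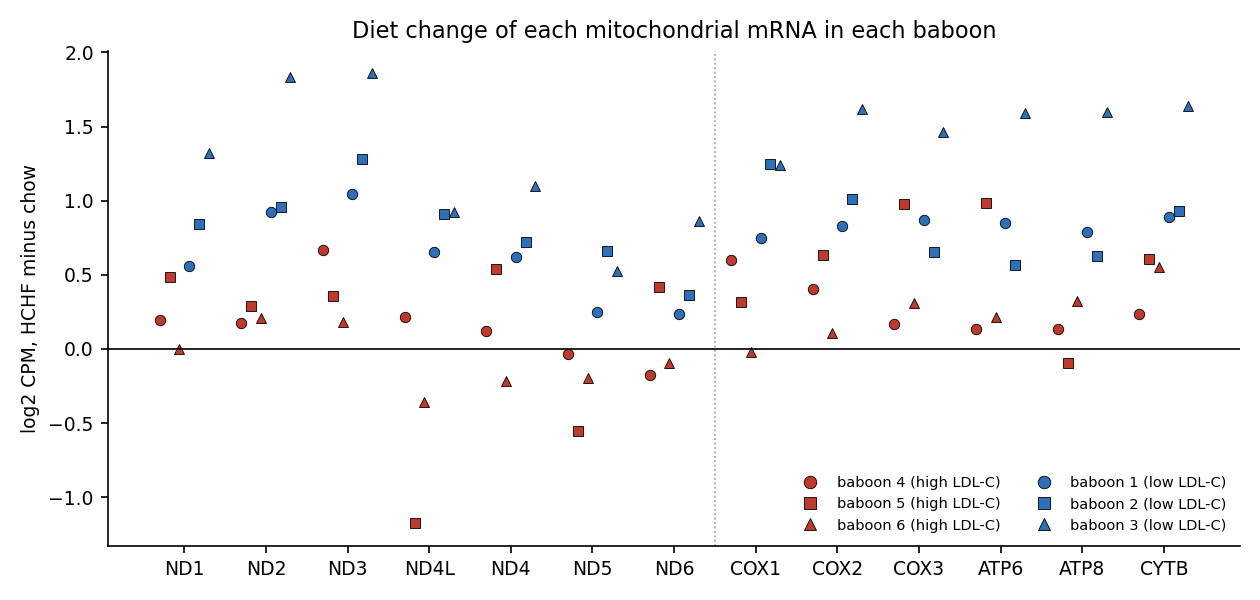
Difference in log2 CPM, HCHF diet minus chow, for the 7 ND genes (left of the dotted line) and the 6 other mitochondrial mRNAs (right) in each baboon, red for high and blue for low LDL-C. The low LDL-C baboons lie above 0 for all 7 ND genes, with baboon 3 up to 1.86 for ND3, while the high LDL-C baboons lie on both sides of 0, down to -1.18 for ND4L in baboon 5.

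Within the phenotypes, the 3 high LDL-C baboons gave fitted differences from -0.44 for ND4L to 0.40 for ND3, with 5 of 7 above 0 and a median of 0.15, beside 51.5% of all genes above 0. Without baboon 5, 3 of 7 were above 0 and the median was -0.05, and scaled by the COX, ATP and CYTB mRNAs 1 of 7 was above 0 and the median was -0.23. No ND gene was called in them, or passed an unadjusted p under 0.05, beside 0.112% of all genes called and 4.31% at the unadjusted threshold. All 7 were above 0 in the 3 low LDL-C baboons, with a median of 0.83, beside 46.9% of all genes above 0 and a median over all genes of -0.04, while scaled by the COX, ATP and CYTB mRNAs 2 of 7 were above 0 (median -0.24). The low LDL-C values ran from 0.48 for ND5 to 1.39 for ND3 (SE 0.47, unadjusted p = 0.0121, adjusted p = 0.682 by edgeR) and were 1.24 for ND2 (SE 0.53, unadjusted p = 0.0389, adjusted p = 0.816). No ND gene was called (background 0%), while 2 of 7 were higher at an unadjusted p under 0.05, as were 1.78% of all genes. The paper, which scaled and tested its reads in another way, does place ND3 among the genes most raised in these 3 animals. It reports that change as significant after correction. Why the calls differ was not tested. The 6 other mitochondrial mRNAs had medians of 0.41 in high LDL-C baboons and 1.04 in low LDL-C baboons. In low LDL-C baboons DESeq2 called ND3 (adjusted p = 0.0348) and ND2 (adjusted p = 0.155), among 10 genes in all. Without baboon 2, whose chow library had the fewest counts outside the 2 most counted genes, edgeR also called ND3 (adjusted p = 0.128) and ND2 (adjusted p = 0.134), among 1020 genes in all. Over the alternatives for the low LDL-C baboons the lowest adjusted p of any ND gene ran from 0.0348 to 1.

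The difference between the diet responses, high minus low LDL-C, was below 0 for all 7 ND genes, from -1.27 for ND4L to -0.44 for ND6, with a median of -0.74, while 1 of 7 (ND6) was above 0 after quantile normalization with limma and 3 of 7 when scaled by the COX, ATP and CYTB mRNAs (median -0.04). Of all genes 52% were above 0 here. The 6 other mitochondrial mRNAs were all below 0 as well, with a median of -0.73. Tested directly, no ND gene was called and none had an unadjusted p under 0.05, beside 0.225% of all genes called and 4.87% at the unadjusted threshold. With DESeq2 3 of 7 (ND2, ND3 and ND4L) had an unadjusted p under 0.05, as did 3 of 7 in edgeR without baboon 2, and none was called. The 95% interval of the difference was -2.71 to 0.18 for ND4L and -1.77 to 0.88 for ND6, so that a response of the high LDL-C baboons well below that of the low LDL-C baboons, or equal to it, lies within the error. Without baboons 1 and 6, the owners of the libraries that stand apart, the median difference was -0.88 and the median diet response was 0.25 in the high LDL-C baboons and 0.92 in the low LDL-C baboons, with no ND gene called. Leaving the 2 most counted genes out of the library sizes gave medians of 0.13 in the high LDL-C and 0.81 in the low LDL-C baboons.

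High and low LDL-C baboons were also compared on each diet. On the HCHF diet all 7 ND genes were lower in high LDL-C baboons, with a median log2 fold change of -0.60, from -1.02 for ND3 (SE 0.42, unadjusted p = 0.0339, adjusted p = 0.817 by edgeR) and -0.98 for ND2 (SE 0.42, unadjusted p = 0.0402, adjusted p = 0.817) to -0.54 for ND5 and ND6, while 52.6% of all genes were above 0. None was called (background 0%), and 2 of 7 were lower at an unadjusted p under 0.05, beside 2.44% of all genes lower. The HCHF values of the phenotypes did not overlap for 5 of 7 ND genes (ND1, ND2, ND3, ND4L and ND4), lower in high LDL-C baboons, beside 4.84% of all genes. They did not overlap for any of the 6 other mitochondrial mRNAs either, again lower in high LDL-C baboons. Those 6 had a median of -0.70, with 2 lower at an unadjusted p under 0.05 by edgeR. ND3 averaged 1685 ± 347 CPM in high LDL-C and 3417 ± 310.4 CPM in low LDL-C baboons (SD, n = 3 each). The sign of these differences rests on the scaling, because after quantile normalization with limma 6 of 7 ND genes were above 0, with a median of 0.06, and scaled by the COX, ATP and CYTB mRNAs 4 of 7 were, with a median of 0.08. On chow the fitted differences, high over low LDL-C, lay between -0.11 for ND3 and 0.18 for ND4L, with adjusted p = 1 by edgeR for each. Here 4 of 7 were above 0, as were 47.8% of all genes, and the signs changed with the scaling and with the baboons left out. No ND gene passed an unadjusted p under 0.05 on chow, beside 5.92% of all genes (background of called genes 0%). Intervals on chow were wide, such as -1.31 to 1.21 for ND2.

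Shares within the mitochondrial mRNAs do not depend on library size or on the 2 most counted genes. Of the counts on the 13 mitochondrial mRNAs, the 7 ND genes took 22.4%, 19.4% and 24.2% in high LDL-C baboons 4, 5 and 6 on the HCHF diet, against 25.3%, 22.3% and 27.3% on chow. In low LDL-C baboons 1, 2 and 3 they took 23.0%, 21.2% and 22.8% on the HCHF diet, against 24.8%, 22.9% and 25.4% on chow. The ND share was lower on the HCHF diet in 6 of 6 baboons, though HCHF and chow values overlap between animals. Group means were 22.0% ± 2.45 on the HCHF diet and 25.0% ± 2.501 on chow in high LDL-C baboons, and 22.3% ± 0.97 on the HCHF diet and 24.4% ± 1.28 on chow in low LDL-C baboons (SD, n = 3 each). The 95% Wilson intervals of single libraries, which cover counting error only, were 0.148 to 0.486 percentage points wide, narrower than the difference within any baboon. Since these are shares of a whole, the other 6 mRNAs were higher together wherever the ND genes were lower. No test was run on the shares.

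Within this share the ND genes differed among themselves. ND1, ND4L, ND5 and ND6 took a lower share on the HCHF diet in 6 of 6 baboons and ND4 in 5 of 6. The share of ND3 was higher in 5 of 6, with baboon 5 as the exception, and that of ND2 in 4 of 6. ND5 took 1.61%, 1.01% and 2.35% in the high LDL-C baboons on the HCHF diet, against 2.09%, 2.16% and 2.84% on chow. In the low LDL-C baboons ND5 took 1.35%, 1.38% and 1.84% on the HCHF diet, against 1.95%, 1.67% and 3.34% on chow. ND5 and ND6 had the lowest median log2 change in share, -0.46 and -0.52, and ND3 the highest, 0.29. The COX2 share was higher on the HCHF diet in 6 of 6 baboons. When only the 7 ND genes are set against each other, per kb, ND3 was higher on the HCHF diet in 6 of 6 baboons, with a median log2 change of 0.36, and ND5 was lower in 6 of 6, with a median of -0.37.

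**Figure D3:**
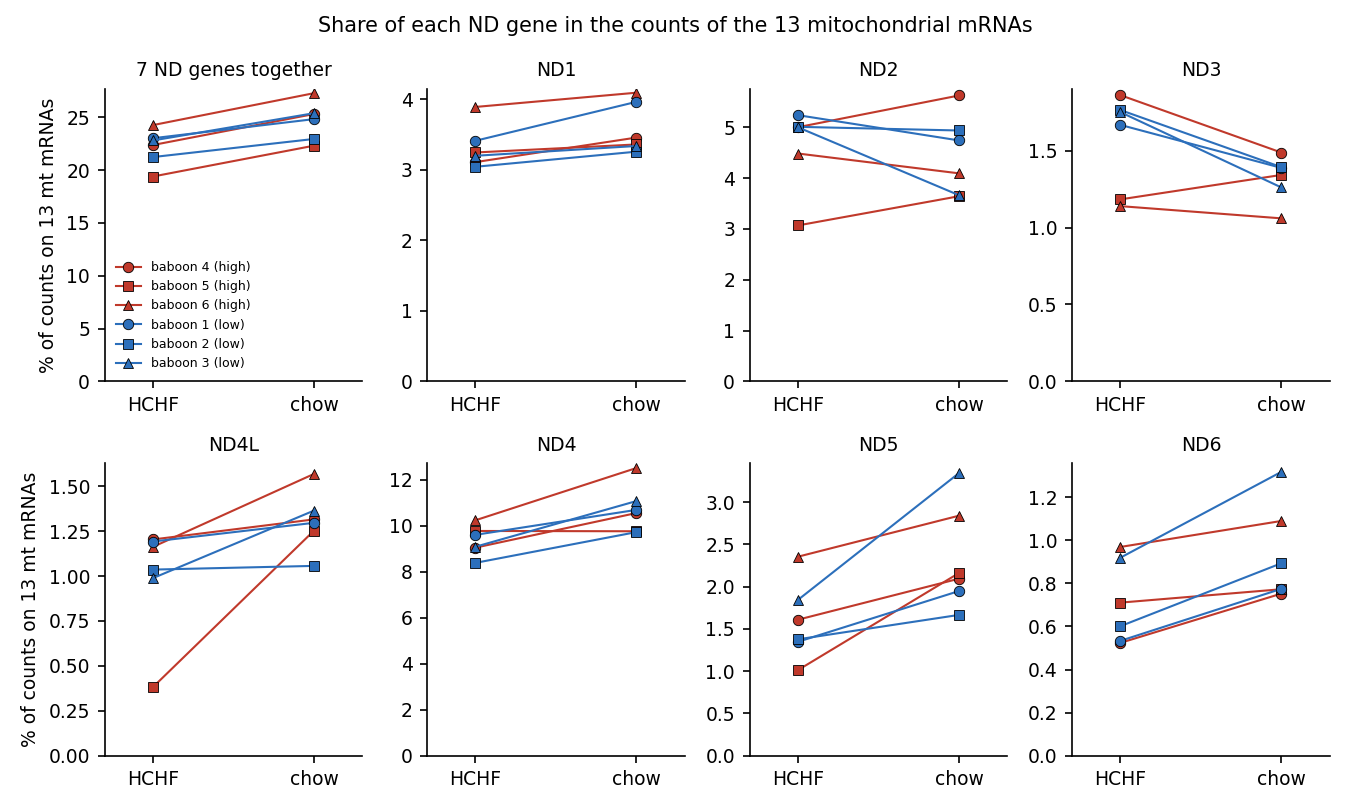
Percent of the counts on the 13 mitochondrial mRNAs taken by the 7 ND genes together and by each of them, on the HCHF diet (left) and on chow (right), with a line for each baboon, red for high and blue for low LDL-C. The 7 ND genes together, ND1, ND4L, ND5 and ND6 are lower on the HCHF diet in 6 of 6 baboons, and ND3 is higher in 5 of 6.

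ND6 was set against the other 6 ND genes within each library, because it alone is read from the light-strand promoter. The level of ND6 per kb was 4.003%, 7.24% and 7.60% of the summed levels of the others in high LDL-C baboons 4, 5 and 6 on the HCHF diet, against 5.401%, 6.30% and 7.63% on chow. In low LDL-C baboons 1, 2 and 3 it was 4.04%, 4.89% and 7.26% on the HCHF diet, against 5.70%, 7.18% and 9.99% on chow. The ratio was lower on the HCHF diet in 5 of 6 baboons, almost equal in baboon 6 and higher in baboon 5. The mean log2 change was -0.29 (SD 0.31, n = 6 pairs), with p = 0.0938 in an exact sign-flip permutation test (two-sided), where 0.0312 is the smallest p that 6 pairs allow, and an adjusted p of 0.188 over the 2 ratios tested. With all 12 other mitochondrial mRNAs as the denominator the mean log2 change was -0.41 and the exact permutation p was 0.0312, the smallest possible. That denominator also holds the COX, ATP and CYTB mRNAs.

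ND4L was set against ND4, with which it shares an mRNA. Per kb, ND4L was at 61.7%, 18.1% and 52.6% of ND4 in high LDL-C baboons 4, 5 and 6 on the HCHF diet, against 57.8%, 59.5% and 58.1% on chow. The low LDL-C baboons 1, 2 and 3 had 57.5%, 57.3% and 50.4% on the HCHF diet, against 56.2%, 50.4% and 57.1% on chow. Baboon 5 on the HCHF diet stood far below the other 11 libraries, which all lay between 50.4% and 61.7%. The mean log2 change was -0.29 (SD 0.71, n = 6), lower in 3 baboons and higher in 3, with p = 0.5 in the exact sign-flip permutation test, and without baboon 5 it was -0.002. In the same library ATP8, the other short gene of a shared mRNA, was at 0.292 of ATP6 per kb, against 0.530 to 0.616 in the other 11 libraries. ATP8 and ATP6 overlap by 46 bp and the ATP8 counts were fractional, so this ratio also depends on how reads were divided between them. ND3, a short gene with its own mRNA, was lowest there too against COX3, at 0.223, but close to the next library, at 0.243. With ND3 as the denominator the ND4L ratio had a mean log2 change of -0.70 and an exact permutation p of 0.0312, the smallest that 6 pairs allow. ND3 had the largest fitted diet difference of the ND genes, so this ratio carries that difference as well as any in ND4L. It was not among the 2 ratios adjusted together.

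**Figure D4:**
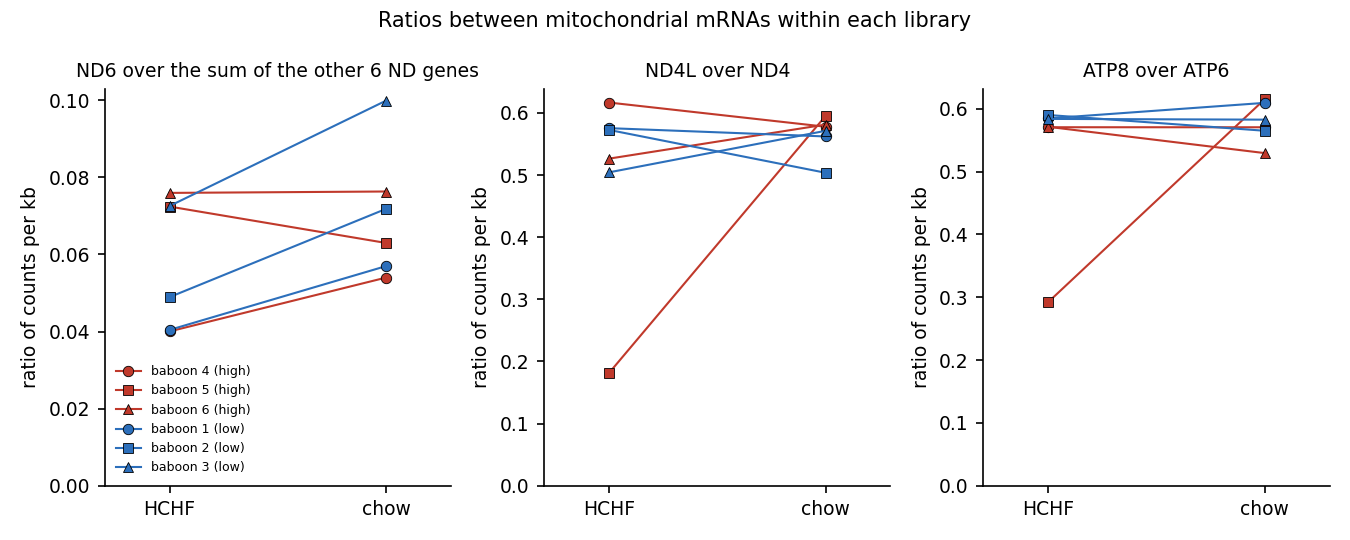
Ratio of counts per kb within each library for ND6 over the sum of the other 6 ND genes, ND4L over ND4, and ATP8 over ATP6, on the HCHF diet (left of each panel) and on chow (right), with a line for each baboon. ND6 is lower on the HCHF diet in 5 of 6 baboons, and in baboon 5 on the HCHF diet both ND4L over ND4 (0.181) and ATP8 over ATP6 (0.292) lie below all other libraries.

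Across the 12 libraries the ND genes differed in how far their levels ran in parallel (Pearson correlation of log2(CPM + 1), a description over libraries that share their baboons and their scaling). ND1 and ND4 were the closest pair of all, at 0.990, and each was the nearest of all genes tested to the other. The nearest gene to ND3 was ND2 (0.944), whose own nearest was ATP8 (0.957). For ND4L, ND5 and ND6 the nearest gene lay outside the mitochondrial genome, at 0.920 on chromosome 11 for ND4L, 0.912 on chromosome 11 for ND5 and 0.863 on chromosome 2 for ND6. Short genes of the mitochondrial genome came close behind for ND4L, at 0.909 and 0.901. Correlations this high with a gene outside the mitochondrial genome were not particular to these 3. The nearest such gene was at 0.909 for ND3, 0.888 for ND1 and for ND4 and 0.870 for ND2. Each is the highest of the 11579 genes tested over only 12 libraries, where high values can arise by chance. ND5 and ND3 were the least alike of the ND genes, at 0.393. ND5 stood nearer to ND4L (0.846) and ND6 (0.781) than to ND1 (0.629), and ND6 nearer to ND5 than to ND4 (0.750). Over the 12 libraries the highest level of an ND gene was 2.79-fold (ND6) to 5.63-fold (ND4L) its lowest, and without the HCHF library of baboon 5 the value for ND4L was 2.87-fold.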

How the data were processed

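Reads were converted with CASAVA 1.8 and aligned by the authors to Ensembl PapAnu2 transcripts using STAR 2.3.1j. Expected counts for 29300 transcripts of 27533 genes were estimated by the authors through expectation maximization in Partek and deposited, scaled neither for length nor for library size. They were summed per gene and rounded. The 11579 genes whose CPM averaged at least 1 were fitted with edgeR 4.0.16 (TMM, glmQLFit, glmQLFTest) under R 4.3.3, with a term for each baboon in the diet comparisons, and p-values were adjusted over all genes. Calls required p below 0.05 before and below 0.20 after adjustment. The fits of high against low LDL-C used the 6 libraries of a diet. Within-library ratios used counts per kb of span and exact sign-flip tests over baboons.

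The animal labels pair the libraries, and the deviations of the libraries of a baboon from their group means correlated at 0.194, 0.0791, 0.25, 0.404, 0.256 and 0.134 for baboons 1 to 6. Alternatives were DESeq2 1.42.0, its size factors, limma 3.58.1 after quantile normalization, other filters and thresholds, scaling without the 2 most counted genes or by the COX, ATP and CYTB mRNAs, a paired test per gene, other ratio denominators, no length scaling, no term for the baboon and leaving out baboons. The text names all 7 ND genes, the other long mitochondrial genes as groups, and for each ND gene its nearest genes by correlation. The members and lists were chosen with earlier results of these data known. Lists of nuclear complex I, assembly, mitochondrial transcription and cell type marker genes were not counted, because the files do not pair IDs with symbols. Fits were tested on data simulated from a common mean profile and a common dispersion, with known changes added. Such data lack the differences between baboons and the swing of the 2 most counted genes. They therefore cannot show how the fits behave on these libraries. TPM values and miRNA data were not used here.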

Additional observations from a re-analysis of the deposited data

Results flagged for a closer look

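Of 9 sets of values over the 6 baboons examined for a value far from the rest, 1 held such a value, and chance alone gives about 1 in 20. The log2 change of ND4L over ND4, HCHF diet minus chow, was -1.716 in baboon 5 of the high LDL-C group, and its gap to the nearest other baboon was 0.8081 of the whole range, above the critical value of 0.625 for 6 values. The ATP8 over ATP6 ratio of the same HCHF library was the lowest of the 12 as well, at 0.292, and so was ND3 over COX3, at 0.223. The cause was not tested.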

How the results depend on the processing

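No ND gene was called under most alternatives. DESeq2 called 1 ND gene over all baboons (ND3, log2 fold change 0.90) and 2 in the low LDL-C baboons (ND2, 1.22, and ND3, 1.37). Over the fits that left out a baboon, 0 to 2 were called in the low LDL-C baboons, both in the fit that lacked baboon 2. When the pairing was ignored, with no block for the baboon, 0 ND genes were called in each diet comparison, and the ratio changes were -0.29 for ND6 over the other ND genes (exact permutation p = 0.212) and -0.29 for ND4L over ND4 (p = 0.385). Other denominators gave -0.41 for ND6 over the 12 other mitochondrial mRNAs and -0.70 for ND4L over ND3.

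Scaling by the COX, ATP and CYTB mRNAs sets the summed count of those 6 genes to no change by construction, while each single gene can still change. It moved the median of all genes to -0.71 over all baboons, -1.10 in low LDL-C, -0.36 in high LDL-C, 0.72 for the difference in response and 0.72 for high against low LDL-C on the HCHF diet. On that scale the diet difference over all baboons was -0.16 for ND1, -0.52 for ND4L, -0.24 for ND4, -0.61 for ND5 and -0.45 for ND6. In high LDL-C baboons it was -0.15 for ND1 and for ND2, -0.23 for ND4 and -0.33 for ND6, and in low LDL-C baboons -0.16 for ND1, -0.24 for ND4L, -0.26 for ND4, -0.59 for ND5 and -0.58 for ND6. The difference in response was 0.016 for ND1, 0.031 for ND4 and 0.25 for ND6. High against low LDL-C gave 0.082 for ND1, 0.10 for ND4 and ND6 and 0.13 for ND5 on the HCHF diet, and 0.018 for ND2 on chow.

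Quantile normalization with limma also turned the sign of ND4L (-0.11) and ND5 (-0.019) over all baboons, of ND4 in high LDL-C baboons (-0.29) and of ND6 in the difference in response (0.066). For high against low LDL-C it gave 0.35 for ND1, 0.058 for ND2, 0.026 for ND3, 0.052 for ND4, 0.33 for ND5 and 0.18 for ND6 on the HCHF diet, and 0.60 for ND2, 0.29 for ND3 and 0.11 for ND6 on chow. The cause was not tested. High against low LDL-C on chow turned in sign without the 2 most counted genes for ND2 (0.0067), and without baboons 1 and 6 for ND2 (0.12), ND3 (0.13) and ND5 (-0.092).

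With each baboon left out in turn, ND5 ran from -0.015 to 0.24 over all baboons, and in high LDL-C baboons ND4 ran from -0.046 to 0.35 and ND6 from -0.14 to 0.16. High against low LDL-C on chow ran from -0.27 to 0.41 for ND1, -0.34 to 0.24 for ND2, -0.35 to 0.16 for ND3, -0.13 to 0.49 for ND4L, -0.24 to 0.36 for ND4, -0.23 to 0.32 for ND5 and -0.49 to 0.11 for ND6. Of 679 fold changes of single ND genes under an alternative, 618 kept sign and call, 56 turned in sign and 5 kept the sign with a call gained. With 3 libraries per group, and 2 of the 12 standing apart, the intervals of the fitted fold changes are wide.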
